A study of Mus musculus with 2 samples.

Results

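The genes described here carry the signals of extracellular ATP and adenosine in mouse macrophages. They are Entpd1, which encodes the cell surface enzyme CD39, the ATP-gated channel genes P2rx4 and P2rx7, the nucleotide receptor genes P2ry2 and P2ry6, the adenosine receptor genes Adora2a and Adora2b, and the phosphodiesterase genes Pde4b and Pde4d. They were chosen by gene name, and all 9 were found among the 55536 genes of the deposited tables, with 75 annotated transcript models. The samples were 2 libraries of macrophages derived from the bone marrow of C57BL/6J mice and given Lipid A, the part of lipopolysaccharide that TLR4 recognises, at 100 ng/ml for 40 min. The RNA was total RNA of the nucleoplasmic fraction, depleted of ribosomal RNA. The age and sex of the animals were not collected. Both libraries are biological replicates of 1 group and carry 1 donor identifier, and part of their spread may be technical. Replicate 1 was made from 1 µg of RNA and replicate 2 from 500 ng, and the effect of this difference cannot be told apart from that of the replicate. Unstimulated macrophages, longer exposures and RNA from elsewhere in the cell were not analysed here, so every value is a level in stimulated cells and no response to Lipid A can be read from it.

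Cells that are stressed or damaged release ATP, which opens P2X channels and activates G protein-coupled P2Y receptors on macrophages. CD39 removes ATP and ADP by cutting them to AMP, which other enzymes turn into adenosine. Adenosine then acts on the receptors encoded by Adora2a and Adora2b, which raise cyclic AMP (cAMP) through the G protein Gs, and phosphodiesterases of the PDE4 family degrade that cAMP. High cAMP is known to restrain the release of TNF by activated macrophages, and in mice loss of Pde4b lowers the TNF response to lipopolysaccharide.

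Entpd1, P2rx4 and Pde4b were abundant, P2ry2, P2ry6 and P2rx7 were intermediate, Pde4d was low, and both adenosine receptor genes were near the detection limit. Levels are given as TPM, a scale of transcript abundance corrected for transcript length and library size, from the authors' table based on read alignment. A gene was called detected at 1 TPM or more in both replicates. By that rule 8 of the 9 genes were detected, and 40.0% of the 22028 protein-coding genes passed it. The median of the 9 genes was 31.6 TPM, against 0.325 TPM over all protein-coding genes and 7.42 TPM over those detected. The 9 genes were chosen with earlier results of these data known. The libraries held 19630046 and 18434601 expected counts. A further transcript table for each library, made by the authors from the FASTQ files, is called FASTQ-derived and serves as another estimate for the same libraries.

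**Figure D1:**
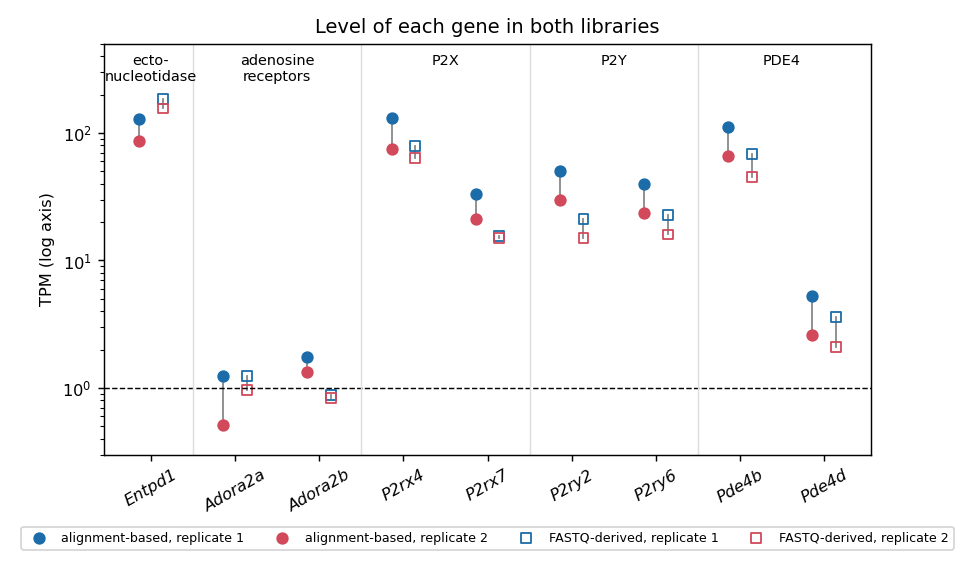
TPM of the 9 genes (log axis) in replicate 1 (blue) and replicate 2 (red), from the alignment-based tables (filled circles) and the FASTQ-derived tables (open squares), grouped by role. The dashed line marks 1 TPM; Entpd1, P2rx4 and Pde4b lie at 45.2 TPM or above in all 4 tables, and both adenosine receptor genes lie around the line.

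Entpd1 (ENSMUSG00000048120, chromosome 19, 40612366 to 40741602, plus strand, mm10) had the highest mean level of the 9 genes. It had 128 TPM in replicate 1 and 86.6 TPM in replicate 2 (107.6 ± 29.6, SD, n = 2), from 7159 and 7815 expected counts. The library with the higher TPM therefore had the lower count. The FASTQ-derived tables gave 185 and 156 TPM, and 75.6 and 68.1 TPM once models shorter than 400 nt were left out. Its mean lay at percentile 96.1 of detected protein-coding genes. Of the 8 genes of the ENTPD family it took 76.9% and 80.4% of the summed TPM.

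The share of Entpd1 in short models differed between the kinds of table. The full-length model Entpd1-201 had 79.3 and 66.6 TPM in the alignment-based tables, which was 61.7% and 76.9% of the gene and 95.7% and 97.5% of its counts. In the FASTQ-derived tables the same model had 31.7 and 28.6 TPM, or 17.1% and 18.4% of the gene. There the first rank went to Entpd1-208, a non-coding model of 204 nt, with 69.7 and 49.4 TPM on 261 and 178 estimated counts. The alignment-based tables gave Entpd1-208 13.2 and 1.96 TPM on 8 counts and 1 count. The non-coding Entpd1-206, of 628 nt, had 29.8 and 15.6 TPM in the alignment-based tables and 27.3 and 29.3 TPM in the FASTQ-derived ones. Another short model, Entpd1-207, took 1.32% and 1.03% of the gene by the first kind of table and 12.2% and 11.9% by the other. On counts, which do not weight short models up, the long coding model led in all 4 tables.

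The long coding models of Entpd1 begin at 2 annotated starts 47.4 kb apart. The upstream start, used by Entpd1-204, 210 and 211, was at 0 in both alignment-based tables and at 4.39% and 4.91% of the gene's TPM in the FASTQ-derived ones. The downstream start opens Entpd1-201. RefSeq promoter windows (GRCm38.p6, 250 bases before to 50 after a start) exist for both and are shown because the starts differed in assigned reads; capitals mark matches to the CRE core TGACG or to the PU.1 core GAGGAA on either strand.
Entpd1 upstream start, chr19:40612116-40612415, plus strand: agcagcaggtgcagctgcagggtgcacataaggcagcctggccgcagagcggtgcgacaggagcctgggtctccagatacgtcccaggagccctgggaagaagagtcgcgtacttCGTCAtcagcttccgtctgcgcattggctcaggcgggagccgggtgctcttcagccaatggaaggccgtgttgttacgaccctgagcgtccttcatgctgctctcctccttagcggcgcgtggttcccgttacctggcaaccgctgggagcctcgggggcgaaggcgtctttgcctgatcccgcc
Entpd1 downstream start, chr19:40659520-40659819, plus strand: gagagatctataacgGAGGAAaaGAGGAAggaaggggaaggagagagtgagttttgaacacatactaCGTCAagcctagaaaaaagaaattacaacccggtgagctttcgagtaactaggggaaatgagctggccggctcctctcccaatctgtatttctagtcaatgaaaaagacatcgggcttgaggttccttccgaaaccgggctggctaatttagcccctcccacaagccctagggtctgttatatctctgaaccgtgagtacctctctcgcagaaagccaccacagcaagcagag
The downstream window held 2 PU.1 cores, at -235 and -227 from the start, and 1 CRE core at -183, while the upstream window held 1 CRE core at -135. Of 32851 mouse promoter windows of this length, 28.3% held a PU.1 core and 20.8% a CRE core. A match is a run of letters and was not tested as a binding site.

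P2rx4 (ENSMUSG00000029470, chromosome 5, 122707544 to 122729738, plus strand) encodes an ATP-gated cation channel found largely in lysosomal membranes of macrophages. It had 132 TPM in replicate 1 and 74.5 TPM in replicate 2 (103 ± 40.9, SD, n = 2), from 5048 and 3848 counts. The FASTQ-derived values were 79.2 and 63.6 TPM. P2rx7 (ENSMUSG00000029468, chromosome 5, 122643911 to 122691432, plus strand), whose channel triggers potassium loss and activation of the NLRP3 inflammasome when ATP is high, lies 16111 bases upstream of P2rx4 on the same strand. It had 33.1 and 21.1 TPM (27.1 ± 8.46, SD, n = 2) from 2418 and 2020 counts, and 15.6 and 15.1 TPM in the FASTQ-derived tables. P2rx4 was higher than its neighbour in every table, by 4.0- and 3.53-fold in TPM and by 5.07- and 4.22-fold in FASTQ-derived TPM. On TMM-scaled counts per kilobase of exons merged over models, P2rx4 was only 1.77- and 1.62-fold P2rx7, so the size of the gap depended on the scale. Both together made up nearly all P2X signal: of 7 P2X genes P2rx4 took 79.7% and 77.5% of the TPM and P2rx7 19.9% and 22.0%.

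P2rx4 RNA was divided among spliced and intron-containing models. The leading model by TPM was P2rx4-202 at 52.6 and 19.1 TPM, which lacks exon 6 of the 12 exons of P2rx4-201. P2rx4-201 had 18.6 and 18.0 TPM. The ratio of P2rx4-202 to P2rx4-201 was 2.84 in replicate 1 and 1.06 in replicate 2, and 3.61 and 2.49 in the FASTQ-derived tables. On expected counts it was 1.91 and 0.713, so the order of these models was not the same in both libraries. The coding model P2rx4-206 also holds exon 6 and is not part of this ratio. It had 8.26 and 1.53 TPM, and 7.78 and 6.55 TPM in the FASTQ-derived tables. Exon 6 lies at chr5:122724594-122724674, plus strand. It is 81 nt long and so adds 27 codons without a shift of frame; it is printed because the leading spliced models of P2rx4 differ by it. P2rx4-201 and P2rx4-202 also differ at the 3′ end, where P2rx4-201 is 694 nt longer. Reads in that stretch could be assigned to P2rx4-201 but not to P2rx4-202, so their ratio is not a measure of exon 6 alone.
P2rx4 exon 6: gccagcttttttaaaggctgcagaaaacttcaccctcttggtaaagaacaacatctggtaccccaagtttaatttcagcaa

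The 3 models of P2rx4 annotated with a retained intron took 37.0% and 43.6% of its TPM, and 38.8% and 37.5% in the FASTQ-derived tables. Most of the reads in them belonged to P2rx4-208, with 1727 and 1422 counts at 21.8 and 13.5 TPM. That model runs from exon 1 straight into the first intron, of which it holds 3676 of 6611 nt. The retained-intron model P2rx4-203 had 13.5 TPM in each replicate, and the short non-coding P2rx4-205 had 3.90 and 3.48 TPM. P2rx4-205 took 10.1% and 19.8% of the gene in the FASTQ-derived tables.

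P2rx7 was carried by 1 long model. P2rx7-203, with 13 exons, had 19.9 and 14.2 TPM, which was 60.2% and 67.0% of the gene and 83.7% and 94.5% of its counts. In the FASTQ-derived tables it took 58.3% and 44.3% of the TPM but 89.2% of the counts in each replicate. The short P2rx7-207 took 5.11% and 11.2% of the alignment-based TPM and 20.9% and 34.4% of the FASTQ-derived TPM. A retained-intron model, P2rx7-205, had 220 counts in replicate 1, 14.3 in replicate 2 and 0 in both FASTQ-derived tables. All 2103 of its bases lie within the exons of P2rx7-203, so its reads could not be told from reads of that model. P2rx7-208, which starts inside the gene 6.51 kb from the first start, had 14.8 and 0 expected counts, and 53.1 and 43.5 estimated counts in the FASTQ-derived tables.

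P2ry2 (ENSMUSG00000032860, chromosome 7, 100996568 to 101012866, minus strand) encodes a receptor for ATP and UTP, and P2ry6 (ENSMUSG00000048779, chromosome 7, 100937630 to 100974649, minus strand) one for UDP. Both signal mainly through Gq. They lie 21918 bases apart. P2ry2 had 50.1 and 29.6 TPM (39.9 ± 14.5, SD, n = 2) from 1174 and 1058 counts, and 21.1 and 15 TPM in the FASTQ-derived tables. P2ry6 had 39.5 and 23.7 TPM (31.6 ± 11.1, SD, n = 2) from 934 and 834 counts, and 22.8 and 16 TPM in the FASTQ-derived tables. The order of this pair depended on the table: P2ry2 was 1.27- and 1.25-fold P2ry6 in TPM and 0.927- and 0.938-fold in FASTQ-derived TPM. Of the summed TPM of 8 P2Y genes P2ry2 took 47.4% and 46.7% and P2ry6 37.4% and 37.5%.

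Part of the TPM of both genes sat in short models that read from a first exon into the intron after it. P2ry2-205, a retained-intron model of 565 nt, led P2ry2 with 27.5 and 14.4 TPM, or 54.8% and 48.8% of the gene, and also led in both FASTQ-derived tables. It held 18.1% and 13.1% of the gene's counts. The coding models P2ry2-201 and P2ry2-206 had 9.08 and 4.97 TPM in replicate 1, and 4.86 and 5.93 TPM in replicate 2. The short coding model P2ry2-203 had 6.06 and 2.69 TPM. In P2ry6 the coding model P2ry6-201 led with 20.1 and 14.7 TPM and 80.5% and 86.6% of the counts. The retained-intron model P2ry6-202 had 14.2 TPM in replicate 1 but 2.79 TPM in replicate 2, from 130 and 32 counts, and the processed transcript P2ry6-203 had 5.20 and 6.27 TPM. Gm44545, annotated inside P2ry6 on the opposite strand, had 108 and 110 counts. The strand setting of the counting is not given in the sources used here, so reads of the pair may be shared.

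The 30 bases at the end of the exon tell the spliced from the unspliced RNA, and are printed for 4 genes in which a named retained-intron model runs on from a spliced exon. P2rx7-205 is not among them, since it lies within an exon of P2rx7-203. In each line the last 15 bases of the exon are in lower case and the following 15 in capitals, which are intron in the unspliced form and the next exon in the spliced form.
P2rx4-208, unspliced, chr5:122707773-122707802, plus strand: ggcttacgtcattggGTGAGCGGGCCTGGG
P2rx4-201, spliced: ggcttacgtcattggGTGGGTGTTCGTGTG
P2ry2-205, unspliced, chr7:101011697-101011726, minus strand: tagagcgtgatctcgGTGAGTGTCATCTTG
P2ry2-201, spliced: tagagcgtgatctcgGAGTCCTCCGGGCAG
P2ry6-202, unspliced, chr7:100964204-100964233, minus strand: agagggagttttcagGTAAGGGTGCTTCCC
P2ry6-201, spliced: agagggagttttcagATAAACGGTGACTGA
Pde4d-212, unspliced, chr13:109772666-109772695, plus strand: aagccaccatcacagGTAAGAGACCCGTGG
Pde4d-201, spliced: aagccaccatcacagAGGAGGCCTACCAGA
Each unspliced line continues with the bases GT, the usual start of an intron, while the spliced line of P2rx4 also happens to begin its next exon with these letters.

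The adenosine receptor genes were the lowest of the 9. Adora2b (ENSMUSG00000018500, chromosome 11, 62248984 to 62266453, plus strand), which encodes the receptor with the lower affinity for adenosine, had 1.76 and 1.34 TPM (1.55 ± 0.30, SD, n = 2) from 62 counts in each replicate. Adora2a (ENSMUSG00000020178, chromosome 10, 75316877 to 75334784, plus strand), which encodes the receptor with the higher affinity, had 1.24 and 0.51 TPM (0.875 ± 0.52, SD, n = 2) and was the 1 gene not detected. Its 21 and 16 counts have exact Poisson 95% intervals of 13.0 to 32.1 and 9.15 to 26.0, which cover counting error only. The deposited credibility intervals were 0.820 to 2.63 TPM and 0.411 to 1.56 TPM for Adora2a, and 1.29 to 2.13 TPM and 0.991 to 1.64 TPM for Adora2b, so the pair overlapped in each library. The FASTQ-derived tables put Adora2a first, at 1.24 and 0.969 TPM, with Adora2b at 0.873 and 0.838 TPM. On TMM-scaled counts per kilobase of exons merged over models, Adora2b was 4.90- and 6.43-fold Adora2a. The order of these receptors by TPM differed between the kinds of table and was not settled.

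Adora2b has a single model, and Adora2a has 4 with very few reads each. Adora2a-204 had 1.46 and 3.51 counts, the longest model Adora2a-201 13.9 and 12.5 counts, and Adora2a-202 none in the alignment-based tables and 3.19 and 5.32 in the FASTQ-derived ones. The shares of Adora2a models are not interpreted at such counts. Of the other adenosine receptor genes, Adora3 was at 0.12 and 0 TPM from 5 counts and 0 counts, and Adora1 had no count in either alignment-based table. The FASTQ-derived tables gave Adora3 1.35 and 1.23 TPM, above Adora2a and Adora2b.

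Pde4b (ENSMUSG00000028525, chromosome 4, 102087543 to 102607259, plus strand) was the highest by mean alignment-based TPM of the 13 phosphodiesterase genes listed. It had 111 and 65.8 TPM (88.6 ± 32.3, SD, n = 2) from 7368 and 5848 counts, and 68.3 and 45.2 TPM in the FASTQ-derived tables. Pde4d (ENSMUSG00000021699, chromosome 13, 108449948 to 109953461, plus strand), which encodes a related cAMP phosphodiesterase, had 5.22 and 2.60 TPM (3.91 ± 1.85, SD, n = 2) from 156 and 109 counts. Pde4b exceeded Pde4d by 21.3- and 25.3-fold in TPM and by 19.1- and 21.5-fold in FASTQ-derived TPM, a distance well outside the range of either gene. Pde4b made up 92.3% and 92.5% of the TPM of the 4 PDE4 genes.

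PDE4 genes give long and short proteins from separate promoters. The long forms carry regulatory domains that the short forms lack in whole or in part. Pde4b spans 520 kb, and nearly all of its reads were assigned to starts in the 3′ part and to the start of Pde4b-207. The coding model from the first annotated start, Pde4b-208, was at 0 in all 4 tables, and Pde4b-212, a nonsense-mediated decay model from nearly the same start, had 0 and 2 expected counts. Pde4b-207, which starts 167 kb into the gene, led every table with 48.1 and 30.7 TPM, or 43.2% and 46.6% of the gene, and 26.8% and 28.2% in the FASTQ-derived tables. Pde4b-203, from a start at 483 kb, had 30.1 and 15.1 TPM, or 27.0% and 22.9%. Pde4b-202 and Pde4b-204, which start at about 502 kb, together took 29.8% and 30.4% of the TPM and 34.1% and 36.6% in the FASTQ-derived tables. Pde4b-201, from a start at 500.0 kb, was at 0 in both alignment-based tables but had 10.5 and 7.51 TPM in the FASTQ-derived ones, or 15.4% and 16.6% of the gene.

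Pde4b-207 differs from Pde4b-203 at both ends. It has 5 exons of 807 nt in all before the first exon they share, and its last exon is 2286 nt long, against 874 nt in Pde4b-203. Reads in the extra 1412 nt at the 3′ end could be assigned to Pde4b-207 but not to Pde4b-203, whatever start they came from, so the share of Pde4b-207 is not a measure of its start alone. The first exons of Pde4b-201, Pde4b-202 and Pde4b-204, and part of that of Pde4b-203, lie in introns of Pde4b-207. The last exon of Pde4b-204 also runs into such an intron. Reads of unspliced RNA from the start of Pde4b-207 could be assigned to these models. Their shares are therefore not a measure of their own starts alone. Non-coding models of Pde4b took 0% and 0.0456% of its TPM. All of them end by 470 kb, upstream of the exons that the leading coding models share. The near absence of non-coding share is therefore tied to the annotation and does not measure unspliced RNA in the 3′ part of the gene.

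**Figure D2:**
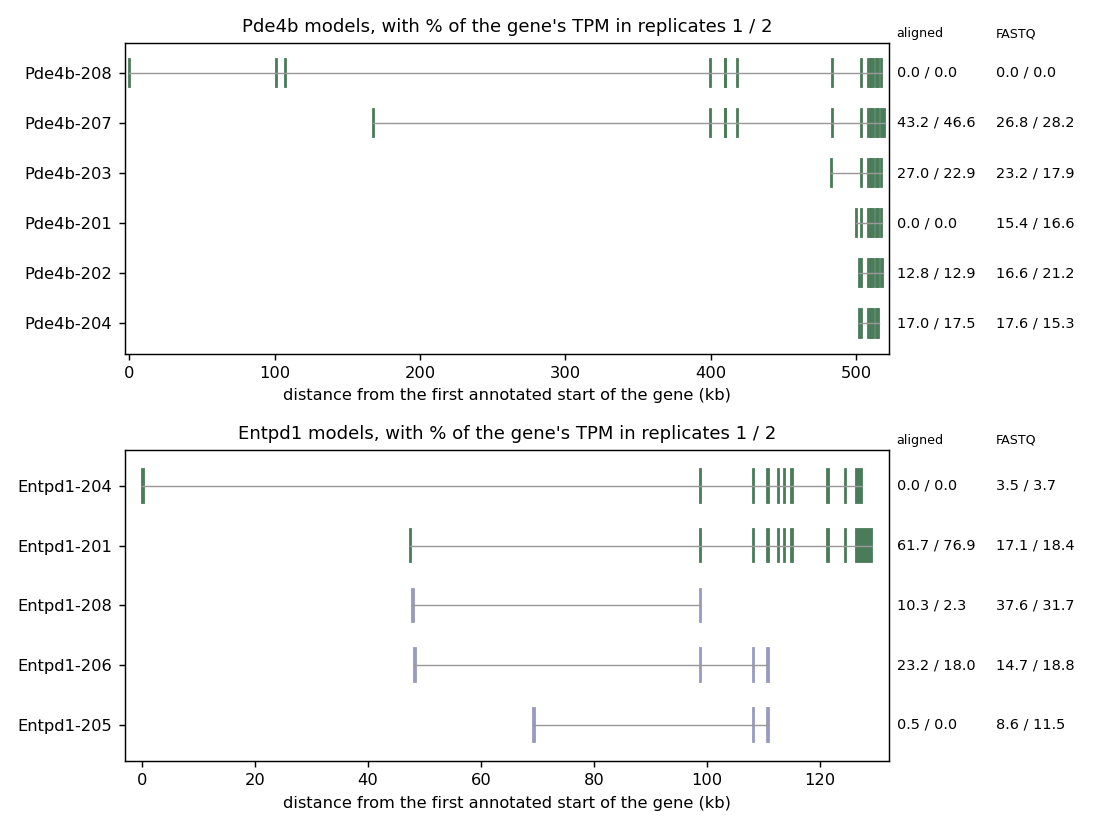
Exons (boxes, with a minimum drawn width) of the main Pde4b and Entpd1 models against distance from the first annotated start in kb, green for coding and violet for non-coding models, with the share of the gene's TPM in replicates 1 and 2 of each kind of table at the right. Pde4b-208 from the first start is at 0.0% in every table, and Pde4b-201 and Entpd1-204 are at 0.0% in the alignment-based tables only.

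RefSeq promoter windows exist for 3 starts in the 3′ part of Pde4b, while none of the windows lies at the start of Pde4b-207. A further window, at the start of Pde4b-205, held 1 CRE core at -34 and is not shown. Pde4b-205 was at 0 in both kinds of table. The 3 windows of the 3′ part are shown because models that begin there were assigned part of the gene's reads. Capitals mark the NF-kB consensus in the first and the PU.1 core GAGGAA, read on either strand, in the others.
Pde4b-203 start, chr4:102569810-102570109, plus strand: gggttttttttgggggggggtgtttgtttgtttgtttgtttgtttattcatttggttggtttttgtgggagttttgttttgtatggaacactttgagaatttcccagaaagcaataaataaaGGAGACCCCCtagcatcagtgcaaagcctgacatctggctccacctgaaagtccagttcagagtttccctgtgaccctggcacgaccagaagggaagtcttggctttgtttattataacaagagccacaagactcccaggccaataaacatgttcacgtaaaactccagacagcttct
Pde4b-201 start, chr4:102587308-102587607, plus strand: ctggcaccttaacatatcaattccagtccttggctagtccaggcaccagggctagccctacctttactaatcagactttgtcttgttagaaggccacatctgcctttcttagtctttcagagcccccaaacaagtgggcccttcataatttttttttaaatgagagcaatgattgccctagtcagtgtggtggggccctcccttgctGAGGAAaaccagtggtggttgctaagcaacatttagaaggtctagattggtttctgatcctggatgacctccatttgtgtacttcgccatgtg
Pde4b-202 and Pde4b-204 start, chr4:102589593-102589892, plus strand: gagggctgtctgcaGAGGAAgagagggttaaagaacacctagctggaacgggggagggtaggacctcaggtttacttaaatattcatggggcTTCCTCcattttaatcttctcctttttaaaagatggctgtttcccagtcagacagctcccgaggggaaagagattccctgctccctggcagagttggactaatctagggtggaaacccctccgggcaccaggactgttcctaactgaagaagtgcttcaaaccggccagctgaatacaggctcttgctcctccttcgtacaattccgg
The window of Pde4b-203 held 1 NF-kB match, from -128 to -119 of its start, and the other 2 windows held none. The NF-kB consensus was present in 4.51% of the 32851 windows. The window of Pde4b-201 held 1 PU.1 core at -43, and that of Pde4b-202 and Pde4b-204 held 2, at -236 and -158. None of the 13 windows found for 7 of the genes held the full CRE palindrome TGACGTCA, which 1.79% of all windows held. The AP-1 motif TGANTCA (7.81% of windows) occurred once, in a window of P2rx7. That window held 2 copies of the SP1 box GGGCGG (35.7%), the P2rx4 window 1, the Adora2b window 6 and each P2ry2 window 4. The P2ry2 windows overlap, and their 4 boxes are the same bases.

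Pde4d, spread over 1504 kb with 20 models, had few reads. It had 3.58 and 2.11 TPM in the FASTQ-derived tables. Its leading model in every table was Pde4d-212, a retained-intron model with 2.91 and 1.27 TPM, 55.7% and 48.7% of the gene, from 59.4 and 33.6 counts. Pde4d-212 ends 758 nt into an intron of 130896 nt. Non-coding models took 79.5% and 70.9% of Pde4d TPM and 60.4% and 54.8% of its counts. The model from the first start, Pde4d-211, had 8 and 3 counts, and the short Pde4d-217 had 3 counts and 1 count. The models that begin 204 to 410.2 kb into the gene, Pde4d-209 and Pde4d-220, were at 0 in all 4 tables, and so in the alignment-based tables were the coding models from the starts nearest the 3′ end, Pde4d-203 and Pde4d-219. The coding model Pde4d-207, which starts at 1453 kb, had 31.2 and 12.2 counts. With 156 and 109 counts for the whole gene, the shares of single coding models rest on few reads.

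Across the 9 genes, 30 models were non-coding and 11 of those were annotated as retained introns. Over the 7 genes with a non-coding model, the median share of such models was 40.0% and 38.2% of the TPM, against 32.4% and 31.5% over 7441 detected protein-coding genes that have one. The genes ranged from Pde4b at nearly 0 to Pde4d above 70%. As a share of counts, the median over the 7 genes, from the means of both replicates, was 15.6%, near the 16.7% and 16.2% over the same 7441 genes. Pde4d had 60.4% and 54.8% of its counts in non-coding models, P2rx4 39.4% and 42.4%, P2ry6 19.5% and 13.4%, P2ry2 18.1% and 13.1%, P2rx7 9.72% and 2.25%, Entpd1 4.04% and 2.44%, and Pde4b 0% and 0.0342%. By TPM, the same model led in both replicates of both kinds of table for 5 of the 7 detected genes with several models, P2rx4, P2rx7, P2ry2, Pde4b and Pde4d, and not for Entpd1 and P2ry6. The share over all such genes was 48.6%. By expected counts the leading models of P2rx4 and P2ry2 changed between replicates, P2rx4-202 and P2ry2-201 in replicate 1 and P2rx4-208 and P2ry2-206 in replicate 2.

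**Figure D3:**
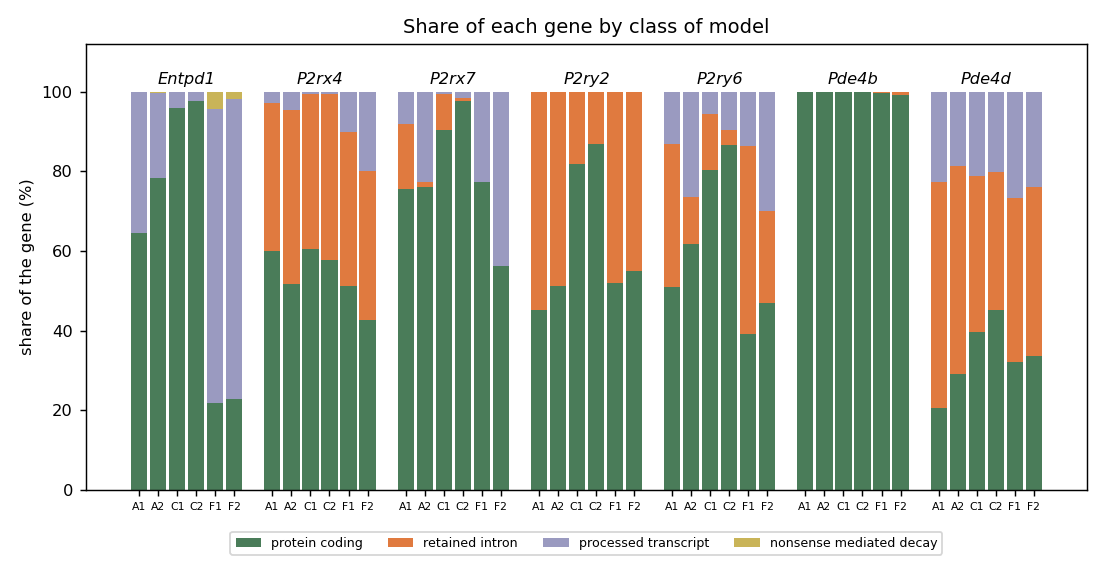
Share of each gene (%) assigned to coding models, retained introns, processed transcripts and nonsense-mediated decay models, as alignment-based TPM (A1, A2), alignment-based counts (C1, C2) and FASTQ-derived TPM (F1, F2) in replicates 1 and 2. Pde4b is assigned almost wholly to coding models, Pde4d is mostly non-coding by TPM, and Entpd1 is 4.04% and 2.44% non-coding by counts but 78.2% and 77.1% by FASTQ-derived TPM.

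Ordered by mean TPM, the genes formed steps. The ranges over both replicates overlapped among Entpd1, P2rx4 and Pde4b. All 3 had lower TPM in replicate 2. Within a library P2rx4 was above Pde4b in all 4 tables, by 1.19- and 1.13-fold in TPM and 1.16- and 1.41-fold in FASTQ-derived TPM. Entpd1 was 0.971- and 1.16-fold P2rx4 in TPM and 2.34- and 2.45-fold in FASTQ-derived TPM. Pde4b stood apart from P2ry2, with 65.8 TPM at its lowest and 50.1 TPM as the highest value of P2ry2. P2ry2, P2ry6 and P2rx7 overlapped in turn. Within a library P2ry6 was above P2rx7 by 1.19- and 1.12-fold in TPM and by 1.46- and 1.06-fold in FASTQ-derived TPM. On TMM-scaled counts per kilobase of merged exons the order turned, with P2rx7 at 19.6 and P2ry6 at 16.1. P2rx7, at 21.1 TPM or more, stood apart from Pde4d, at 5.22 TPM or less, and Pde4d from Adora2b. The lowest values of Adora2b (1.34 TPM) and the highest of Adora2a (1.24 TPM) did not overlap, but that order turned in the FASTQ-derived tables. On TMM-scaled counts per kilobase of merged exons, Adora2b at 1.78 was above Pde4d at 0.580, whose merged exons over 20 models cover 12006 nt.

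The TPM of all 9 genes was lower in replicate 2, as was the median of all genes. The summed TPM of all protein-coding genes was 312150 in replicate 1 and 225650 in replicate 2. The SD of a gene's TPM therefore also holds this difference between the libraries. The median log2 TPM ratio of replicate 2 over replicate 1 was -0.76 over the 9 genes and -0.52 over the 14515 genes with a mean count of at least 10. After TMM scaling of counts, 7 of the 9 genes were lower in replicate 2, and 50.5% of the 14515 genes were. The log2 ratio ran from -0.42 for Pde4d to 0.22 for Entpd1, with -0.29 for P2rx4, -0.28 for Adora2a, -0.24 for Pde4b and -0.16 for P2rx7. P2ry2 at -0.05 and P2ry6 at -0.07 hardly differed between libraries, and Adora2b was at 0.10. None of the 9 changed past 2-fold, which 5.57% of genes did in either direction. All 9 lay between the 5th and the 95th percentile of all genes, -0.86 and 0.68. Macrophage markers moved the same way, with 8 of 9 lower in replicate 2 and a median log2 ratio of -0.44, and their part in the ratios was not tested.

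**Figure D4:**
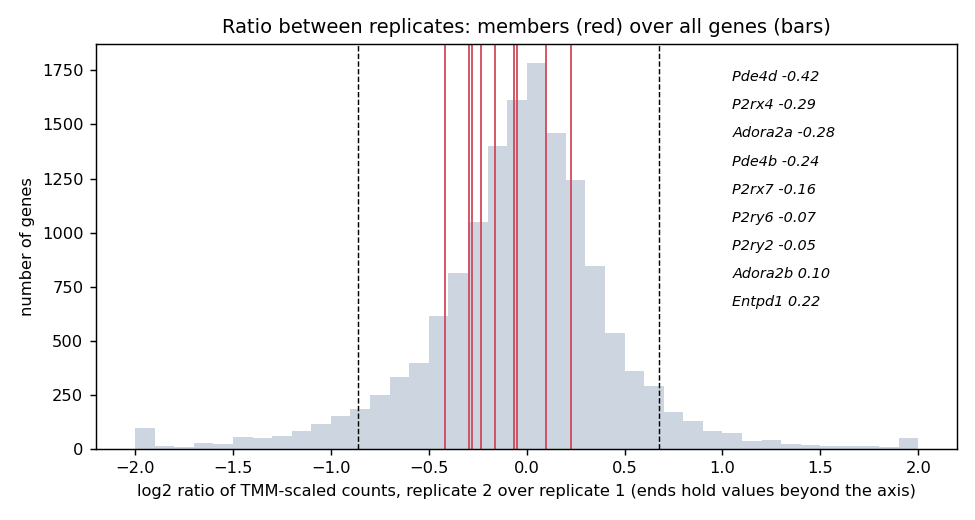
Histogram of the log2 ratio of TMM-scaled counts, replicate 2 over replicate 1, for 14515 genes (bars), with the 9 genes as red lines and their values at the right; dashed lines mark the 5th and 95th percentiles. The 9 lines lie between -0.42 and 0.22, inside the dashed lines at -0.86 and 0.68.

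The rest of the pathway was taken from 10 lists of 81 genes. Of these, 43 were detected, 9 had no count in either library, and the median was 2.09 TPM, while the 9 genes above had a median of 31.6 TPM. Genes and lists were chosen with earlier results of these data known, and the part of that choice in this difference was not tested. Of 5 further P2X genes none was detected: the highest were P2rx1 at 0.24 and 0.15 TPM, P2rx5 at 0.21 and 0.11 TPM and P2rx3 at 0.08 and 0.21 TPM, and P2rx2 had no count. Of 6 further P2Y genes 2 were detected, P2ry14, a receptor for UDP-glucose, at 9.36 and 5.90 TPM and P2ry13, an ADP receptor, at 4.95 and 2.98 TPM. P2ry12, the ADP receptor of platelets and microglia, had 1.04 and 0.80 TPM.

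Among 16 other genes of ATP breakdown and nucleoside handling 7 were detected. The intracellular nucleotidase gene Entpd7 had 27.4 and 13.8 TPM, the nucleoside transporter gene Slc29a1 13.8 and 8.32 TPM, and the adenosine kinase gene Adk 11.7 and 6.73 TPM. Nt5e, which encodes CD73, the enzyme that makes adenosine from the AMP left by CD39, had 0.38 and 0.27 TPM from 25 counts in each replicate, and is named here after its value was seen. Alpl and Enpp3 had no count. Of 4 genes of ATP release 3 were detected, the connexin gene Gja1 at 7.57 and 4.97 TPM, the vesicular transporter gene Slc17a9 at 5.11 and 3.76 TPM and the pannexin gene Panx1 at 2.33 and 1.16 TPM, and Panx2 had no count.

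On the cAMP side, 7 of 11 other phosphodiesterase genes were detected. Pde7b, specific for cAMP, had 94.8 and 59.3 TPM, Pde1b, which is activated by calmodulin, 68.1 and 65.0 TPM, and Pde8a 10.6 and 10.4 TPM. Pde4b took 35% and 29.6% of the summed TPM of all 13 phosphodiesterase genes listed, and its range overlapped those of Pde7b and Pde1b. In the FASTQ-derived tables Pde4b had 68.3 and 45.2 TPM, and Pde7b had 67.0 and 47.0 TPM, so Pde7b was the higher in replicate 2. Pde4c had no count in the alignment-based tables. Of 9 adenylyl cyclase genes 3 were detected, Adcy7 at 51.0 and 29.7 TPM, Adcy9 at 12.1 and 7.79 TPM and Adcy3 at 9.56 and 5.87 TPM, and Adcy1 and Adcy8 had no count.

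Of 9 G protein alpha subunit genes 6 were detected. Gna13 had 60.1 and 29.6 TPM, Gnaq, whose product couples P2Y receptors to phospholipase C, 40.7 and 28.4 TPM, and Gnas, which encodes Gs, 35.6 and 27.3 TPM; Gnai1 had no count. Of 14 genes of cAMP effectors and CREB 12 were detected, led by the transcription factor gene Creb1 at 56.7 and 37.5 TPM, its coactivator gene Crtc2 at 38.6 and 34.9 TPM and the kinase subunit gene Prkar1a at 29.2 and 23.9 TPM. Of 5 other receptor genes that raise cAMP 3 were detected, among them the prostaglandin E2 receptor gene Ptger4 at 11.2 and 6.24 TPM and the prostacyclin receptor gene Ptgir at 3.19 and 3.16 TPM. Both were above both adenosine receptor genes in both replicates of the alignment-based tables.

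**Figure D5:**
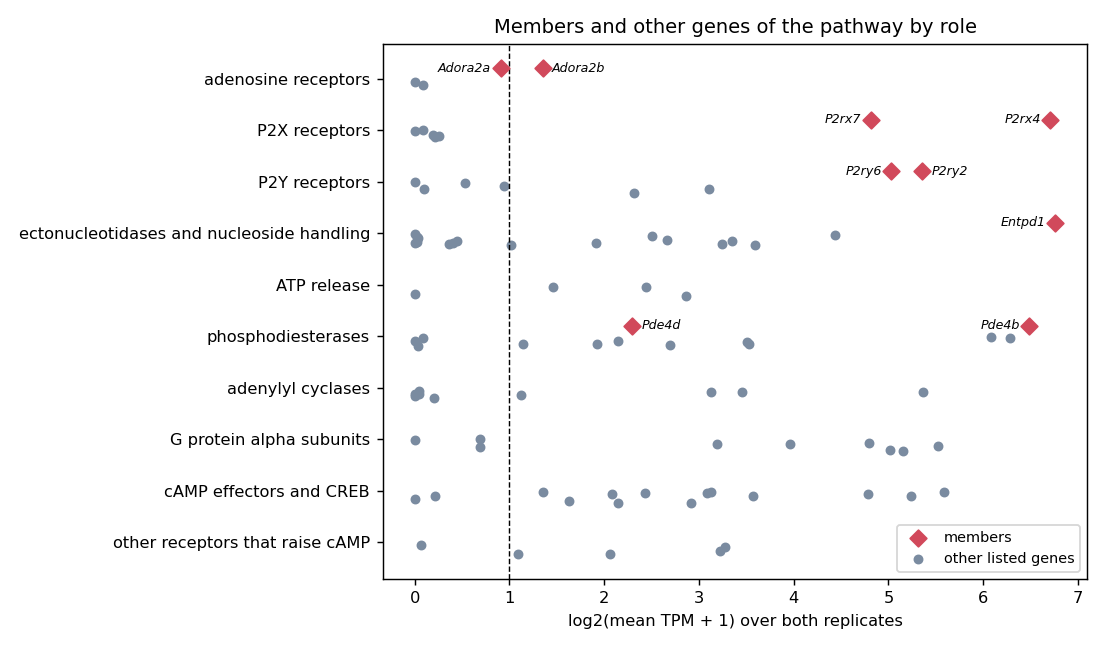
Mean level over both replicates, as log2(TPM + 1), of the 9 genes (red diamonds) and of the 81 other pathway genes (grey points), by role; the dashed line marks a mean of 1 TPM. Entpd1, P2rx4, P2rx7, P2ry2, P2ry6 and Pde4b lie to the right of every grey point of their role, while Pde4d, Adora2a and Adora2b lie at a mean of 3.91 TPM or less.

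All 9 macrophage markers were detected, with summed levels of 3754 and 2509 TPM. Marker lists for 9 other kinds of cell held 29 genes, of which 4 were detected and 9 had no count. The highest was Pf4, a platelet chemokine gene, at 35.2 and 30.1 TPM; the other platelet markers Gp9 and Itga2b were at 1.24 and 1.02 TPM and at 2.18 and 0.62 TPM, and the platelet list summed to 38.6 and 31.8 TPM. The remaining detected markers were Kdr of endothelium, at 3.78 and 2.11 TPM, and Cd5 of T cells, at 3.46 and 1.66 TPM, while the T cell genes Cd3e and Cd3g had no count. Cells of the platelet lineage use P2Y receptors, and their part in the levels of P2ry2 and P2ry6 was not tested. In bulk RNA, fewer cells that express a gene and less of its RNA per cell cannot be told apart.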

How the data were processed

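Total RNA-seq of the nucleoplasmic fraction was available for 2 libraries of 1 group, with fragments selected for a size range of 250 to 400. Per the file headers, the authors' alignment-based gene and transcript tables give expected counts, TPM, FPKM and a posterior mean TPM, and their FASTQ-derived transcript table gives estimated counts and TPM. The deposited bounds of the TPM credibility interval were taken as a score, since they need not sum like TPM. TPM and FPKM were normalised by the authors for length and library size. Per the labels deposited with the files, the build is mm10 and the annotation GENCODE M21; which aligner, quantifiers and strand setting were used is not given in the sources used here. Gene names, model types, exons and sequences came from GENCODE M21 and promoter windows from RefSeq.

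Expected counts were rounded for edgeR 4.0.16 (TMM, prior count 1, genes with a mean count of at least 10) in R 4.3.3; the ratio step was tested on simulated data. DESeq2 1.42.0 size factors were an alternative. With 1 group no test was possible, and values are descriptions. A model's share is its TPM or count over the sum of its gene. Replicates differed by more than counting noise (chi-square over degrees of freedom 43.0 over 14515 genes) and were kept apart. Detected means at least 1 TPM in both replicates.

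The members and lists were chosen with earlier results of these data known. Named are all 9 genes; per list the 3 highest by mean TPM and genes with no count; per gene the leading model, every model with at least 10% of its gene in both replicates of either kind of table, and the outermost starts of Pde4b and Pde4d. P2rx4-206, P2rx7-205, P2rx7-208, Entpd1-204, 210 and 211, Pde4d-207, 209 and 220, Pde4b-212, Gm44545 and Nt5e were named after their values were seen. The values of 1 listed gene are not reported here.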

Additional observations from a re-analysis of the deposited data

How the results depend on the processing

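No paired analysis was possible because both libraries belong to 1 group. Between 6 and 9 of the 9 genes were detected under every threshold, scale and single library tried, and 7 of 9 were lower in replicate 2 under DESeq2 size factors, library size alone, no filter and FASTQ-derived counts (6 of the 7 genes with a mean count of at least 100, all 9 by TPM). At 5 TPM in both replicates 26 of the 81 pathway genes were detected, against 43 at 1 TPM. The median level of the 9 genes, 31.6 TPM, was 18.1 by FASTQ-derived TPM, with or without models under 400 nt. As counts per kilobase of merged exons, a unit other than TPM, it was 16.1. Among genes with several models, a model with at least 50% of its gene was found for 5 by TPM and for 1 by FASTQ-derived TPM. The median non-coding share, 43.7% from the means of both replicates, was 15.6% by expected counts and 53.1% by FASTQ-derived TPM, and 38.2% to 40.0% with 1 replicate left out. The cause of these shifts was not tested. Both merged-exon and 400 nt settings, and a non-coding share without the retained-intron model of P2rx7 (43.7%), were chosen after seeing the data. Of 54 alternative values for levels of single genes, replicates left out not counted, 33 stayed within the spread between replicates and 21 did not. For TPM that spread includes the lower median TPM of all genes in replicate 2. Of the 21, FPKM gave 2 and counts per kilobase of merged exons 7. These are units other than TPM, so their distance from the TPM value is not a like comparison. A further 2 were log2 levels with another pseudocount. FASTQ-derived TPM, the same unit, gave 5, for Entpd1, Adora2b, P2rx7, P2ry2 and P2ry6. Without models under 400 nt it gave 5 for the same genes. Depth limits Adora2a, Adora2b and Pde4d most. The Poisson intervals cover counting error only, and neither kind of interval covers the spread between replicates.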

Other observations

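Several low genes of the pathway were listed at or near 0 in the alignment-based tables and higher in the FASTQ-derived ones. Adora3 had 0.12 and 0 TPM in the alignment-based tables and 1.35 and 1.23 TPM in the FASTQ-derived ones, above Adora2a and Adora2b there. Pde4c, at 0 in both alignment-based tables, had 0.813 and 0.520 TPM in the FASTQ-derived tables. Adrb1 had 0 and 0.09 TPM in the alignment-based tables, and 0.812 and 1.42 TPM in the FASTQ-derived ones. These genes were picked after their values were seen, and the cause of the difference was not tested.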
